A study of Homo sapiens with 4 samples.

Results

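The genes described here are the transcription factors of the MYC, MAX and MXD network in the human medulloblastoma cell line Daoy, infected with a lentivirus that expresses a hairpin RNA targeting FABP4, a fatty acid chaperone (shFABP4), or with the control virus pLKO. They were chosen by name, as MYC, MYCN, MYCL, MAX, MXI1, MXD3, MXD4, MNT, MGA and MLX, and all 10 were found among the 59384 gene names of the deposited count table. The groups were shFABP4 (genotype given as FABP4 knockdown, 2 libraries) and pLKO (genotype given as WT, 2 libraries), and all 4 libraries came from the same cell line. The labels give no hairpin sequence, time after infection or separate cultures, so p-values reflect spread among libraries only, and that spread may be technical.

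In this network, proteins with a basic helix-loop-helix leucine zipper pair with each other and bind E-box DNA. MYC, MYCN and MYCL pair with MAX and recruit coactivators, whereas MXD proteins (MXI1 is one of them), MNT and MGA pair with MAX and recruit corepressors, so both arms compete for the same partner and the same sites. MLX is a second hub that pairs with some of the MXD proteins, with MNT and with the glucose-responsive factors MLXIP and MLXIPL. In medulloblastoma the network is best known for amplification of MYC or MYCN in aggressive tumours.

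The libraries were not alike. The shFABP4 libraries held 2539862 fragments (library 1) and 20431660 (library 2), and the pLKO libraries 8988961 and 13839885. In shFABP4 1 a fragment fell on 51762 gene names, against 22350 in shFABP4 2 and 23372 and 25560 in pLKO. Olfactory receptor genes carried 6.55 fragments per kb in shFABP4 1, against 0.222 in shFABP4 2 and 0.213 and 0.355 in pLKO. A background rate per kb for shFABP4 1 was taken, by GC content, from the 2644 coding genes silent in all 3 other libraries, and amounted to 54.97% of that library. FABP4, the targeted gene, had 14 and 0 fragments in the shFABP4 libraries and 1 and 6 in the pLKO libraries, with 4.71 expected from background in shFABP4 1, which is 5.51 and 0 CPM in shFABP4 and 0.111 and 0.434 CPM in pLKO (CPM are fragments of a gene per 1000000 counted in its library). As CPM shFABP4 1 thus lay above both pLKO libraries. The spread of background was taken only from genes with at least 25 fragments expected, so whether 14 fragments exceed it was not tested. With so few fragments in pLKO, these counts cannot show whether FABP4 was lowered in either shFABP4 library. Below, shFABP4 1 means the library so labelled. Of 10 markers of blood, endothelial, liver and epithelial cells, the sum was 269 CPM in shFABP4 1 and 16.2 in shFABP4 2, against 18.7 and 16.4 in pLKO, with 0 and 4 of the 10 at 0 in shFABP4 and 6 and 2 at 0 in pLKO. PTPRC, the pan-leukocyte marker, held 30 and 0 fragments in shFABP4 and 0 and 2 in pLKO. HBB, a haemoglobin gene, held 114 and 297 in shFABP4 and 163 and 204 in pLKO. It made up most of the sum in each library but shFABP4 1. The 8 Sonic hedgehog group medulloblastoma genes summed to 323 and 86.0 CPM in shFABP4 and to 9.68 and 9.54 in pLKO. In shFABP4 1 GLI2, PTCH1 and GLI1, the highest there, held 265, 221 and 123 fragments, with 142, 182 and 74.6 expected from background. In shFABP4 2 most of the sum was SFRP1, with 942 fragments, and GLI1, GLI2 and PTCH1 held 479, 187 and 134. With TMM scaling these 4 genes, the only ones tested of the 8, lay above both pLKO libraries in both shFABP4 libraries. Of all tested genes 28.5% did so. The others of the list held at most 8 fragments in shFABP4 2. The 6 neural progenitor genes summed to 1377 and 6434 CPM in shFABP4 and to 1546 and 1563 in pLKO, with 0 and 1 of the 6 at 0 in shFABP4 and 1 and 0 at 0 in pLKO. VIM, an intermediate filament of mesenchymal and progenitor cells, held 2830 and 131016 fragments in shFABP4 and 13811 and 21475 in pLKO. It made up most of the sum in every library. MSI1 held 140 and 6 fragments in shFABP4 and 4 and 9 in pLKO, and PAX6 284 and 3 against 3 and 10. With TMM scaling NES, another such filament, and SOX9, a progenitor transcription factor, lay above both pLKO libraries in both shFABP4 libraries, while SOX2 had at most 5 fragments in any library. ATOH1, the cerebellar granule progenitor factor, had 5 fragments in shFABP4 1 and none elsewhere. In such bulk libraries fewer cells of a type and less RNA per cell cannot be told apart. The part of these marker differences in the results below was not tested.

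The canonical E-box of the network, CACGTG, was looked for in the promoters of the network genes themselves. Promoter sequences from 250 bases before to 50 after the start (RefSeq, GRCh38.p14) were searched for 9 of the 10 genes, with 14 starts in all. MYC was not searched. CACGTG, which reads the same on both strands, was found in MXD4, MNT and MLX, and in 7.26% of all 35116 promoters. The related CACGCG was searched on both strands (CGCGTG on the other), where a match can overlap one on the opposite strand but not a CACGTG. It was found in MXD3, in 1 start of MXI1 and in 1 of MGA, against 11.4% of all promoters. Sequences are given 5′ to 3′ on the gene's strand with matches in capitals, for the 3 genes with a CACGTG and for MXD3, whose value lay below pLKO in both shFABP4 libraries under each scaling. MNT lies at chr17:2401011-2401310 and MXD4 at chr4:2262060-2262359, both on the minus strand, with MLX at chr17:42566850-42567149 on the plus strand and MXD3 at chr5:177312703-177313002 on the minus strand. A match describes the letters only.
MNT: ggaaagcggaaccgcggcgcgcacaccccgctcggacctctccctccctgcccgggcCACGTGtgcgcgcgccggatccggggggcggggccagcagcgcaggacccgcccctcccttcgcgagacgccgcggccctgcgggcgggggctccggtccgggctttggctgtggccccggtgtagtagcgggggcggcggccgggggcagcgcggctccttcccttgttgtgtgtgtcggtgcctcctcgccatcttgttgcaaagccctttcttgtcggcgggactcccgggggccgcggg
MXD4: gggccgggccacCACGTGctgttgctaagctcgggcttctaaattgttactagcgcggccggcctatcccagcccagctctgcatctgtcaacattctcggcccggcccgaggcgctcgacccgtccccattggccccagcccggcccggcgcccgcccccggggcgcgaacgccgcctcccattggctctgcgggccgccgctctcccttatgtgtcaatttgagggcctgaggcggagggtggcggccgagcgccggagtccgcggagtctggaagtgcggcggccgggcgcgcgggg
MLX: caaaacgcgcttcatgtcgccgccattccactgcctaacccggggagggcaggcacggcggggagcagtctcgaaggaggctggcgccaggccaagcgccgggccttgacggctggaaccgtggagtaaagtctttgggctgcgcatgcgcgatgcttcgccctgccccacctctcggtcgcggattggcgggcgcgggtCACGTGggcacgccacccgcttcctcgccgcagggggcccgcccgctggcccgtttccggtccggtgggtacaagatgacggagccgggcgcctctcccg
MXD3: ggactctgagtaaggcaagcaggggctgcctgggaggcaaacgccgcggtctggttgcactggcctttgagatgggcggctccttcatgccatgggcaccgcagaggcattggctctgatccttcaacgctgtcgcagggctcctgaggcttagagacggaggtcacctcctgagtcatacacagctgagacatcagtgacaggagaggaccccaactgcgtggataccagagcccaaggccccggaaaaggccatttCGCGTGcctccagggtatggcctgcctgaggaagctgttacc
Counted from the start as 0, CACGTG began at -193 in MNT, at -238 in MXD4 and at -50 in MLX, and the CACGCG match of MXD3 (read as in the capitals) began at 8.

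MXD3 had the largest fitted difference of the tested members over all 4 libraries with TMM scaling, whereas with high-signal scaling (by abundant genes) it was at -0.84 on the log2 scale and MGA, MNT, MXI1 and MLX were at 3.93, 3.02, 2.81 and 1.85. It encodes an MXD family repressor that, unlike most of its relatives, is found in proliferating cells and around S phase. Its locus spans 177301461 to 177312757 of chromosome 5 in GRCh38 (minus strand), and its merged exons measure 5154 bases. MXD3 held 126 and 2102 fragments in the shFABP4 libraries and 2274 and 3646 in the pLKO libraries. As CPM it stood at 49.6 and 103 in the shFABP4 libraries, against 253 and 263 in the pLKO libraries. Both shFABP4 libraries thus lay below both pLKO libraries, and they did so with each of the 3 scalings used (library totals, TMM over the tested genes and scaling by abundant genes), and also with background subtracted. The edgeR quasi-likelihood test over 14735 genes put MXD3 at -2.22 on the log2 scale (SE 0.90, adjusted p = 0.392), which did not pass the threshold of 0.05. With TMM scaling MXD3 averaged 75.7 ± 60.7 normalised CPM in shFABP4 and 353 ± 11.6 in pLKO (SD, n = 2 each). In shFABP4 1 its 126 fragments (95% Poisson interval 105 to 150, counting error only) stood beside 94.6 expected from background. Counting ignored strand, and 22.3% of the MXD3 exons coincide with exons of PRELID1 on the other strand, a mitochondrial lipid transfer gene, and 17.97% with exons of RAB24, a small GTPase. PRELID1 itself held 20 and 611 fragments in shFABP4 and 68 and 88 in pLKO, with 62.4% of its exons inside those of MXD3. With no multiple-overlap option, a fragment on exons of both MXD3 and a partner was counted for neither. The shared stretches thus gave MXD3 no fragments, but remain in the exon length behind its per-kb values and expected background.

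MNT and MXI1 had higher values in both shFABP4 libraries, and neither passed the test. MNT is a broadly expressed repressor that partners both MAX and MLX, and MXI1 is an MXD repressor that antagonises MYC. MNT (chromosome 17, 2384073 to 2401104, minus strand) held 264 and 1572 fragments in the shFABP4 libraries and 255 and 384 in the pLKO libraries. That was 104 and 76.9 CPM in the shFABP4 libraries, against 28.4 and 27.7 CPM in the pLKO libraries, and the groups did not overlap. Library 1 was the higher of the shFABP4 pair. MXI1 (chromosome 10, 110207605 to 110287365, plus strand) held 88 and 574 fragments in the shFABP4 libraries and 102 and 145 in the pLKO libraries. Its CPM were 34.6 and 28.1 in the shFABP4 libraries and 11.3 and 10.5 in the pLKO libraries. For both genes each shFABP4 library lay above each pLKO library under each of these scalings and with background subtracted. In edgeR the log2 fold change was 1.04 for MNT (SE 0.46, adjusted p = 0.392) and 0.89 for MXI1 (SE 0.47, adjusted p = 0.406), so neither passed. In shFABP4 1 background alone predicted 160 of the 264 MNT fragments and 42.5 of the 88 MXI1 fragments. Counted over expected was thus 1.65 for MNT and 2.07 for MXI1. Silent coding genes in that library ran from 0 to 2.64 between percentiles 5 and 95. The place of both genes in shFABP4 1, also with background subtracted, therefore cannot be told apart from that of silent genes. Of the MNT exons 12.2% coincide with RP1-59D14.1 on the other strand, whose exons lie wholly inside those of MNT. With no multiple-overlap option its fragments could be counted for neither gene. That it held no fragment in any library therefore does not tell whether it was expressed.

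MXD4 and MAX differed least between shFABP4 2 and pLKO as CPM, together with MGA. MXD4 (chromosome 4, 2247432 to 2262109, minus strand), an MXD repressor of differentiating and resting cells, held 302 and 2887 fragments in the shFABP4 libraries and 1337 and 2078 in the pLKO libraries. As CPM these were 119 and 141 in the shFABP4 libraries and 149 and 150 in the pLKO libraries, without overlap. In both groups it was among the most abundant members. MAX (chromosome 14, 65006174 to 65102695, minus strand), the shared partner on which all MYC proteins depend, held 118 and 1761 fragments in the shFABP4 libraries and 779 and 1233 in the pLKO libraries. Its CPM were 46.5 and 86.2 in the shFABP4 libraries and 86.7 and 89.1 in the pLKO libraries. Both shFABP4 libraries lay below both pLKO libraries as CPM and with TMM, by little in library 2 and by more in library 1. For MXD4 edgeR gave -0.76 on the log2 scale (SE 0.67, adjusted p = 0.556) and for MAX -0.88 (SE 0.74, adjusted p = 0.539). With scaling by abundant genes the same fit gave 0.95 for MXD4 and 0.56 for MAX, so the direction of both hung on the scaling. Of the MAX exons 13.1% coincide with exons of FNTB, a farnesyltransferase subunit, on the other strand.

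MYC, the activator and proto-oncogene of the family, split the shFABP4 libraries. MYC (chromosome 8, 127735434 to 127742951, plus strand) held 56 and 1247 fragments in the shFABP4 libraries and 294 and 407 in the pLKO libraries. As CPM it stood at 22.0 (95% Poisson interval 16.7 to 28.6) and 61.0 (57.7 to 64.5) in the shFABP4 libraries, against 32.7 (29.1 to 36.7) and 29.4 (26.6 to 32.4) in the pLKO libraries. On this scale 1 shFABP4 library was below and the other above both pLKO libraries, and edgeR fitted a log2 difference of 0.01 (SE 0.85, adjusted p = 0.996). With TMM scaling the group means were 42.5 ± 39.4 normalised CPM in shFABP4 and 42.4 ± 3.0 in pLKO (SD, n = 2 each), so the shFABP4 spread was nearly as large as its mean. In shFABP4 1 the 56 MYC fragments were fewer than the 75.0 that background predicts.

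The paralogs of MYC were close to silent. MYCN (chromosome 2, 15940550 to 15947007, plus strand), the form that drives neural progenitor growth, held 54 and 0 fragments in the shFABP4 libraries and 0 and 2 in the pLKO libraries. A count of 0 allows up to 0.147 CPM in shFABP4 2 and 0.334 in pLKO 1. MYCL (chromosome 1, 39895426 to 39902256, minus strand), first found in lung cancer, held 44 and 13 fragments in the shFABP4 libraries and 1 and 3 in the pLKO libraries. In shFABP4 1 background predicted 27.7 MYCN fragments and 82.8 MYCL fragments. Both genes failed the low-count filter over all 4 libraries and were not tested there, and no fold is given for either. MYC thus held nearly all fragments of the 3 paralogs in the libraries other than shFABP4 1.

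MLX as CPM lay on both sides of pLKO, and MGA stood high in shFABP4 1 alone. MLX (chromosome 17, 42567072 to 42573239, plus strand) held 135 and 247 fragments in the shFABP4 libraries and 278 and 350 in the pLKO libraries. Its CPM were 53.2 and 12.1 in the shFABP4 libraries and 30.9 and 25.3 in the pLKO libraries, so 1 shFABP4 library lay above and 1 below both pLKO libraries (log2 fold change -0.65, SE 0.62, adjusted p = 0.583, edgeR). Of the MLX exons 18.2% coincide with exons of PSMC3IP, a recombination cofactor, on the other strand. MGA (chromosome 15, 41621134 to 41773081, plus strand), a very large protein that joins MAX to a Polycomb repressor complex, held 118 and 126 fragments in the shFABP4 libraries and 55 and 71 in the pLKO libraries. As CPM MGA was 46.5 and 6.17 in the shFABP4 libraries and 6.12 and 5.13 in the pLKO libraries (log2 fold change 1.29, SE 0.86, adjusted p = 0.465, edgeR). Its value in shFABP4 2 was close to both pLKO values, and in shFABP4 1 background predicted 93.1 of the 118 fragments.

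**Figure D1:**
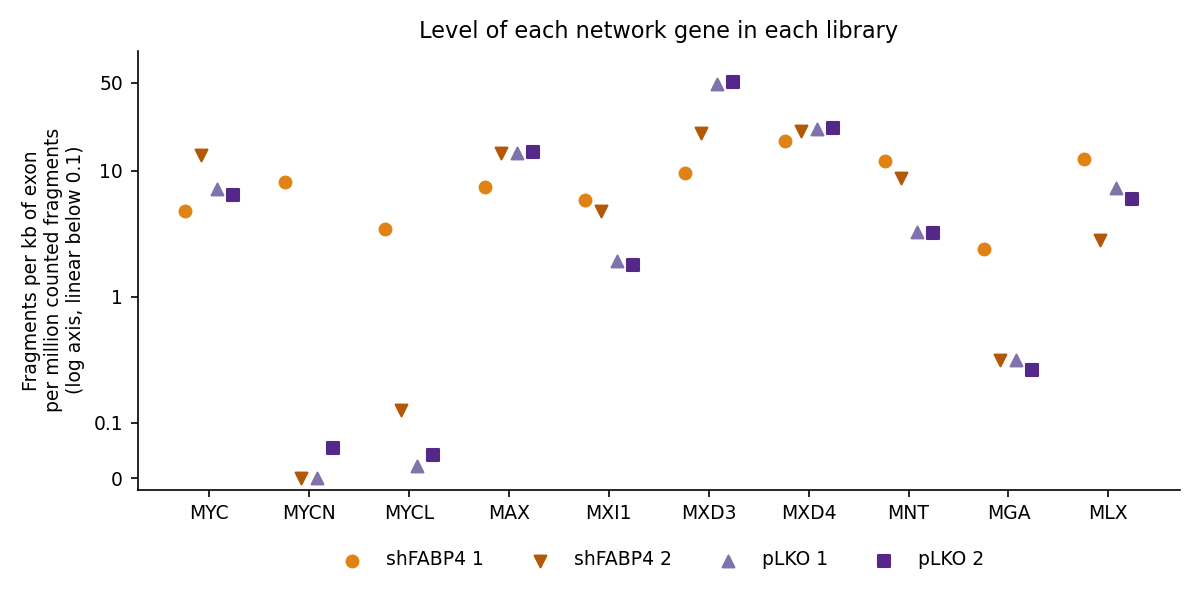
Level of each network gene in each library, as FPKM (fragments per kb of exon and per 1000000 counted) on a log axis that is linear below 0.1. MXD3 sits at 9.63 and 19.96 in the shFABP4 libraries against 49.1 and 51.1 in the pLKO libraries, and MYCN and MYCL lie near 0 everywhere but in shFABP4 1.

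Per length, the tested members had the same order of levels in both pLKO libraries, except for MLX and MYC. In pLKO 1 and pLKO 2 the FPKM (CPM per kb of exon) were 49.1 and 51.1 for MXD3, 21.6 and 21.8 for MXD4, 13.9 and 14.2 for MAX, and 7.27 and 5.94 for MLX. MYC followed at 7.13 and 6.42, MNT at 3.26 and 3.19, MXI1 at 1.92 and 1.77 and MGA at 0.312 and 0.262. MLX and MYC changed places and so did not differ beyond their spread, while all other neighbours in this order were apart by more than the pair's spread. In shFABP4 1, in FPKM, MXD4 stood at 17.3, MLX at 12.5, MNT at 11.9, MXD3 at 9.63, MYCN at 8.13 and MAX at 7.43, with MXI1, MYC, MYCL and MGA between 5.87 and 2.37. In shFABP4 2 the top of the order was MXD4 at 20.6, MXD3 at 19.96, MAX at 13.8 and MYC at 13.3, followed by MNT at 8.84, MXI1 at 4.76, MLX at 2.84 and MGA at 0.315. By full exon length MYC and MAX did not differ beyond counting error there, and MXD3 stood beside MXD4 and not above it. Those lengths include stretches shared with other genes, which give no fragments. Such stretches were 22.3% (PRELID1) and 17.97% (RAB24) of MXD3 exons and 1.16% of MXD4 exons. For MAX 13.1% was shared with FNTB, and for MYC 4.23% with CASC11. Neither comparison was repeated without them. Among all coding genes of a library ranked per kb, MXD3 stood at the percentile 90.1 in shFABP4 2 against 94.7 and 94.8 in pLKO. The percentile of MYC was 86.4 in shFABP4 2 against 81.2 and 80.2 in pLKO, and that of MNT was 82.2 in shFABP4 2 against 72.9 and 72.6 in pLKO.

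**Figure D2:**
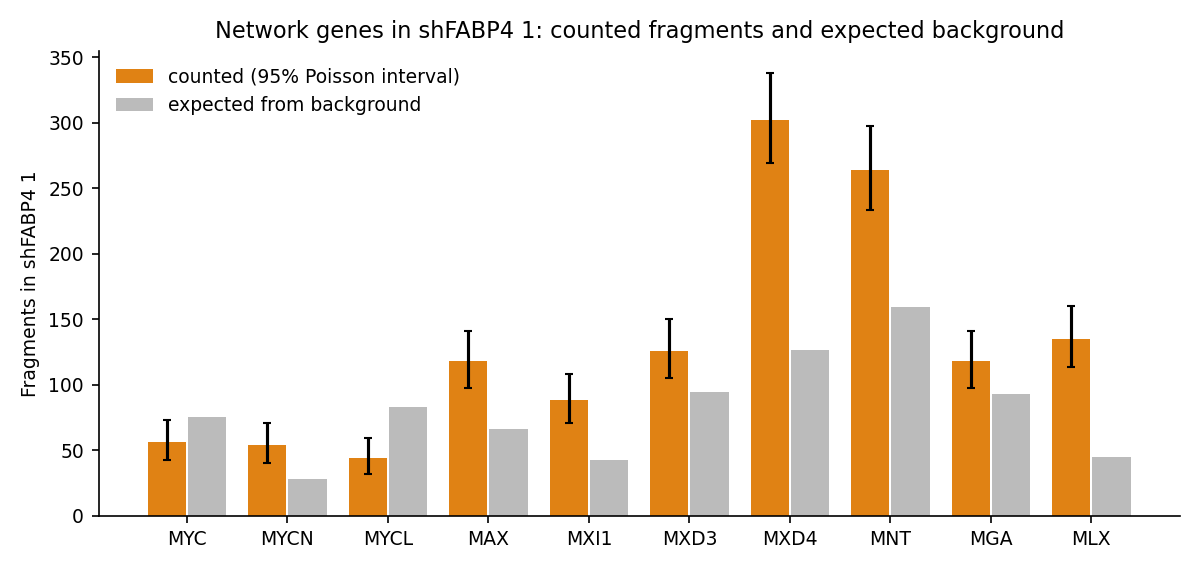
Fragments of each network gene counted in shFABP4 1 (bars with 95% Poisson intervals) beside those expected from background (grey bars). Counted fragments range from 0.531 times the expected background for MYCL to 2.99 times for MLX.

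In shFABP4 1 MYC and MYCL held fewer fragments than background predicts, and the other 8 members more. Counted over expected background ran from 0.531 (MYCL) to 2.99 (MLX) over the 10 members. In 813 coding genes silent in all other libraries and with at least 25 fragments expected, the same ratio had a median of 0.799 and ran from 0 to 2.64 between its percentiles 5 and 95. Of the 10 members 9 lay inside that range, and 1, MLX, lay above it. Of the 10 members 0 belonged to the 1031 coding genes abundant enough for RNA to exceed the background of shFABP4 1 by 5 times (high-signal genes, the abundant genes used for scaling above). MXD3 came nearest, with expected RNA at 2.50 times the background.

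Over both shFABP4 libraries, 0 of the 8 tested members passed in edgeR, where 0 of 14735 tested genes passed (0% called, with 1818 genes or 12.3% at an unadjusted p under 0.05). Of the members 0 had an unadjusted p under 0.05, the smallest being 0.0664 for MXD3. DESeq2 called 695 genes (4.72%, with 3.59% higher and 1.13% lower) and 0 members, with an adjusted p of 0.106 for MXD3, and limma-voom called 0 genes and 0 members. With TMM scaling both shFABP4 libraries lay above both pLKO libraries for 2 of the 8 tested members (MNT and MXI1), against 28.5% of all tested genes, and below for 3 (MXD3, MXD4 and MAX), against 26.1%. As CPM the members counted were 3 above and 3 below, against 43.3% and 15.9% of all genes. With high-signal scaling they were 6 above and 1 below, against 58.7% and 4.84%, and with background also subtracted 3 above and 1 below, against 40.4% and 14.6%. The TMM count is close to the background for all genes. The median log2 fold change was -0.32 over the 8 members and 0.34 over all tested genes, and with high-signal scaling 1.53 and 2.32.

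With shFABP4 1 left out the picture rests on 1 library of the shFABP4 group, and that library is assumed to vary as little as the pLKO pair (biological coefficient of variation 0.0434, against 0.683 with all 4 libraries). In that fit 10242 of 15301 genes, 66.9%, were called (34.2% higher and 32.7% lower), so a call by itself says little. Of the 8 tested members 3 were called higher in shFABP4 2 and 4 lower. The higher ones were MNT (log2 fold change 1.21, SE 0.08), MXI1 (1.13, SE 0.15) and MYC (0.74, SE 0.08), with adjusted p from 9.83e-24 to 2.23e-10 in edgeR. The lower ones were MXD3 (-1.57, SE 0.05), MLX (-1.45, SE 0.14), MXD4 (-0.33, SE 0.05) and MAX (-0.27, SE 0.06), with adjusted p from 2.56e-44 to 1.10e-04 in edgeR. MGA was at -0.09 (SE 0.23, adjusted p = 0.733, edgeR). With shFABP4 2 left out instead, 85.9% of 27830 genes were called (56.6% higher and 29.3% lower), and 3 members were called higher (MGA, with MYCN and MYCL, which passed the filter there) and 7 lower. Apart from MYCN and MYCL, the log2 fold changes in that fit ran from -4.63 (MXD3) to 0.82 (MGA), and MNT (-0.36), MXI1 (-0.57) and MYC (-2.73) were lower. Both fits share the pLKO pair and set 1 library against it.

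**Figure D3:**
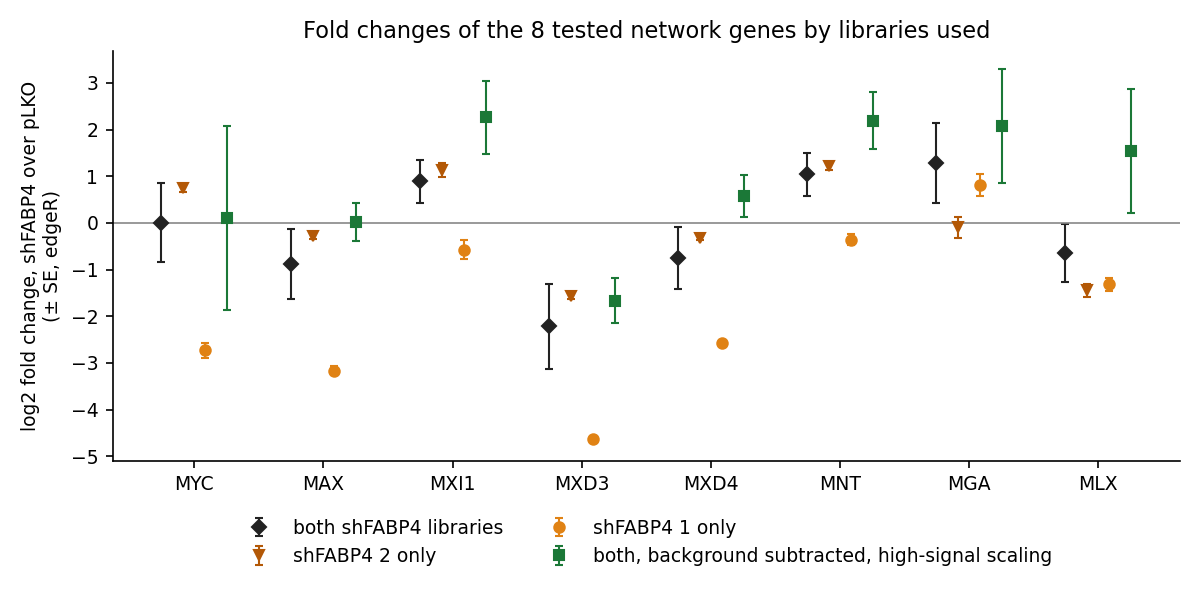
Log2 fold change of shFABP4 over pLKO for the 8 tested network genes (± SE, edgeR) with both shFABP4 libraries, with either of them alone, and with background subtracted and libraries scaled by high-signal genes. MXD3 lies below 0 in all 4 fits, from -4.63 to -1.57, while MYC, MAX, MXI1, MXD4, MNT, MGA and MLX change side between fits.

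Ratios between members inside a library do not depend on how libraries are scaled. MYC to MAX, per kb, was 0.648 (95% exact binomial interval 0.463 to 0.898) and 0.967 (0.898 to 1.04) in the shFABP4 libraries, against 0.515 (0.449 to 0.590) and 0.451 (0.402 to 0.504) in the pLKO libraries. The shFABP4 2 interval lay apart from both pLKO intervals, whereas that of shFABP4 1 overlapped them. MYC to the sum of MXI1, MXD3, MXD4 and MNT was 0.108 and 0.246 in the shFABP4 libraries and 0.0940 and 0.0823 in the pLKO libraries. With background subtracted from shFABP4 1 no MYC fragment remained there, and both ratios were 0.

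The makeup of the repressor arm in shFABP4 2 differed from that in pLKO. In shFABP4 1 its 4 genes cannot be told apart from silent genes. MXD3 supplied 21.5% and 36.9% of the summed fragments per kb of MXI1, MXD3, MXD4 and MNT in the shFABP4 libraries, against 64.7% and 65.6% in the pLKO libraries. MNT supplied 26.7% and 16.3% in the shFABP4 libraries and 4.30% and 4.09% in the pLKO libraries. MXI1 supplied 13.1% and 8.79% in the shFABP4 libraries and 2.53% and 2.28% in the pLKO libraries, and MXD4 38.7% and 37.99% in the shFABP4 libraries and 28.5% and 28.0% in the pLKO libraries. MNT to MXD3, a ratio chosen after the values were seen, was 1.24 (1.0 to 1.55) and 0.443 (0.415 to 0.473) in the shFABP4 libraries and 0.0664 (0.0581 to 0.0756) and 0.0624 (0.0560 to 0.0693) in the pLKO libraries. With background subtracted that ratio was 1.99 in shFABP4 1, and MXD3 supplied 11.7% and MNT 23.3% there. In shFABP4 1 counted over expected background was 1.33 for MXD3, 1.65 for MNT, 2.07 for MXI1 and 2.39 for MXD4. All lay inside the range of silent coding genes (0 to 2.64, percentiles 5 to 95). These shares are a description and were not tested.

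**Figure D4:**
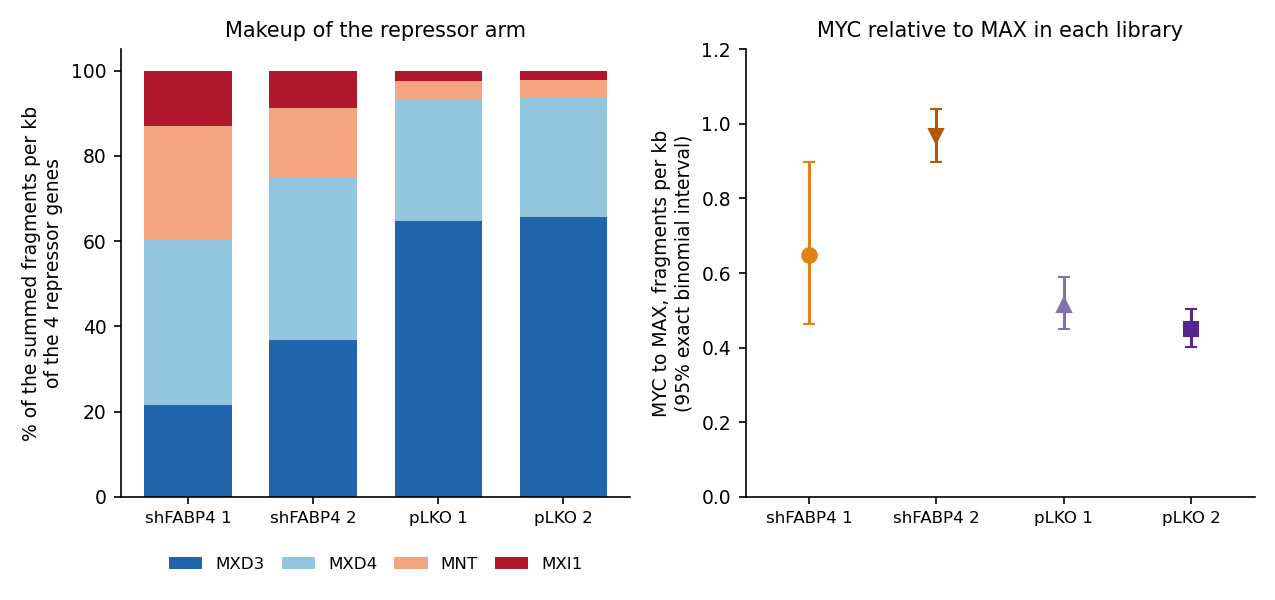
Left, share of MXD3, MXD4, MNT and MXI1 in their summed fragments per kb in each library. Right, MYC to MAX in fragments per kb with 95% exact binomial intervals. MXD3 makes up 21.5% and 36.9% in the shFABP4 libraries against 64.7% and 65.6% in the pLKO libraries. MYC to MAX is 0.967 in shFABP4 2 against 0.515 and 0.451 in pLKO. In shFABP4 1 the counts of all these genes, over expected background, lie inside the range of silent genes.

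Other genes of the network and its cofactors were taken from lists of 91 names, and of the 84 tested 0 passed in edgeR over all 4 libraries (12 at an unadjusted p under 0.05, and 1 called by DESeq2). The 2 genes with the smallest p are named for each list, as genes that did not pass, with TMM-normalised CPM in each library and, first in the parentheses, the log2 fold change. The other MXD and MLX partners were MXD1, MLXIP and MLXIPL. MLXIP, the glucose sensor that pairs with MLX, was at 95.1 and 135 in shFABP4 and 81.4 and 82.7 in pLKO (log2 fold change 0.49, adjusted p = 0.620, edgeR). MLXIPL, its liver-enriched relative, had 83 and 10 fragments in shFABP4 and 5 and 21 in pLKO, and 88.4 were expected from background in shFABP4 1.

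MYC coactivators were counted in both directions, near the shares of all genes. Of 13 tested, both shFABP4 libraries lay above both pLKO libraries for 4 and below for 5 (28.5% and 26.1% of all genes), and without shFABP4 1 the fit called 4 higher and 5 lower (34.2% and 32.7%). KAT2A, an acetyltransferase brought to MYC targets by TRRAP, was at 66.7 and 52.4 in shFABP4 and 253 and 249 in pLKO (-2.08, adjusted p = 0.391, edgeR). BPTF, a nucleosome remodelling subunit, was at 30.0 and 38.2 in shFABP4 and 17.1 and 16.6 in pLKO (log2 fold change 1.01, adjusted p = 0.392, edgeR). Among 13 SIN3 and HDAC corepressor subunits, shFABP4 lay above pLKO for 6 and below for 1 (28.5% and 26.1% of all genes). Their median log2 fold change was nonetheless 0.05 over all 4 libraries, against 0.34 for all tested genes. Without shFABP4 1 it was 0.25, against 0.04. SIN3A, the scaffold bound by MXD proteins and MNT, was at 52.6 and 19.0 in shFABP4 and 9.55 and 10.6 in pLKO (1.82, adjusted p = 0.391, edgeR). ING1, a chromatin reader of that complex, was at 13.3 and 19.98 in shFABP4 and 5.91 and 5.74 in pLKO (1.51, adjusted p = 0.391, edgeR). In shFABP4 1 SIN3A held 202 fragments with 89.7 expected from background, and ING1 held 51 with 64.6 expected.

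Of the 9 Polycomb partners of MGA, shFABP4 lay above pLKO for 3 and below for 2, near the shares of all genes (28.5% and 26.1%). TFDP1, the dimer partner of E2F factors, was at 34.9 and 55.1 in shFABP4 and 107 and 99.3 in pLKO (-1.19, adjusted p = 0.392, edgeR), and PCGF6, a Polycomb ring finger subunit, was at 11.7 and 14.8 in shFABP4 and 6.82 and 7.43 in pLKO (0.90, adjusted p = 0.432, edgeR). Regulators of MYC protein turnover, with the MYC partner MIZ1, had shFABP4 below pLKO for 8 of 15 and above for 1 (all genes 26.1% and 28.5%). ZBTB17, which encodes MIZ1, was at 33.3 and 34.1 in shFABP4 and 119 and 112 in pLKO (-1.78, adjusted p = 0.391, edgeR). AURKA, a mitotic kinase that shields MYCN protein from degradation, was at 21.1 and 49.7 in shFABP4 and 140 and 145 in pLKO (-2.0, adjusted p = 0.391, edgeR). In shFABP4 1 the AURKA count of 81 stood against 21.1 expected from background, and that of ZBTB17, 128, against 77.8.

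Textbook MYC-induced targets had lower values in shFABP4 more often than higher ones, and none passed in edgeR. Of 22 tested, shFABP4 lay below pLKO for 14 (26.1% of all genes) and above for 1 (28.5%), and their median log2 fold change was -0.91, against 0.34 for all genes. With high-signal scaling that median turned to 0.42, against 2.32 for all genes, and with background also subtracted to 0.29, against 1.01. Set against pLKO, shFABP4 2 alone was called lower for 14 and higher for 4 (32.7% and 34.2% of all genes). PPAN, a ribosome assembly factor, was at 6.77 and 16.9 in shFABP4 and 132 and 127 in pLKO (-3.44, adjusted p = 0.391, edgeR). PPAN was the 1 gene of these network and cofactor lists that DESeq2 called (adjusted p = 0.00413, DESeq2). NOP16, a nucleolar protein, was at 23.4 and 33.4 in shFABP4 and 120 and 115 in pLKO (-2.04, adjusted p = 0.391, edgeR). The 26 PPAN and 90 NOP16 fragments of shFABP4 1 stood against 53.0 and 29.8 expected from background.

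Textbook targets that MYC or MIZ1 repress also had more members below than above. Of 7 tested, shFABP4 lay below pLKO for 4 and above for 1 (26.1% and 28.5% of all genes), with a median log2 fold change of -1.01 that turned to 0.83 with high-signal scaling (all genes 2.32). GADD45B, a stress-response gene, was at 16.9 and 50.6 in shFABP4 and 173 and 178 in pLKO (-2.38, adjusted p = 0.391, edgeR). CDKN1B, the inhibitor p27 of cyclin-dependent kinases, was at 10.4 and 14.3 in shFABP4 and 3.94 and 2.77 in pLKO (1.89, adjusted p = 0.391, edgeR). The last list held 5 genes taken as targets of MLX, and whether any of them, G6PC3 included, is one was not tested. TXNIP and ARRDC4, arrestin-family genes induced by glucose, were at 0 in shFABP4 2 and in both pLKO libraries. In shFABP4 1 their counts were 25 and 80, with 25.95 and 19.3 predicted from background. KLF10, a zinc finger transcription factor, was at 12.2 and 11.5 in shFABP4 and 28.0 and 31.6 in pLKO (-1.33, adjusted p = 0.391, edgeR), and G6PC3, a widely expressed glucose-6-phosphatase, was at 77.6 and 315 in shFABP4 and 504 and 498 in pLKO (-1.35, adjusted p = 0.492, edgeR).

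Among the 8600 genes that averaged 100 counts or more, the profiles nearest to that of MYC over the 4 libraries belonged to BCL7B, PRPF38B and B4GALT6, at Euclidean distances of 0.0530, 0.0713 and 0.0908 on centred log2 CPM. BCL7B, a subunit of SWI/SNF remodelling complexes, held 64 and 1389 fragments in shFABP4 and 344 and 458 in pLKO. Such a match describes 4 values, of which 1 comes from the library that was mostly background.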

How the data were processed

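Fragments per gene name were counted by the authors with featureCounts 2.0.0 on GENCODE 38, over exons and with no strand or multiple-overlap option, and deposited as raw counts, per the file headers. RNA was captured on mRNA beads and fragmented with Tn5, per the labels' protocols. The submitters' processing notes name FastQC, HISAT and StringTie, with no version, and GRCh38. The exon length of each gene name is the other deposited value used, per the file headers. One gene, ANK2, spread over 7 broken lines, was left out. The members and gene lists were chosen with earlier results of these data known. The lists' named genes are the 2 with the smallest p, and the genes nearest to MYC are the 3 at the smallest distance.

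All genes passing filterByExpr (count minimum 10, total minimum 15) entered a two-sided quasi-likelihood test in edgeR 4.0.16 under R 4.3.3, with TMM factors, robust estimation, no block and Benjamini-Hochberg adjustment across them (threshold 0.05). Alternatives used DESeq2 1.42.0 and limma 3.58.1 (voom). The gene test was checked on simulated counts. Background in shFABP4 1 used GC content from GENCODE 29 in 6 bins. A coding gene was high-signal when the RNA fragments predicted for it in shFABP4 1, from its mean share in the other 3 libraries, reached 5 times its background. Shared exons were found from the deposited coordinates. Log2 CPM for distances used a prior count of 2. Counts of the pLKO pair varied beyond Poisson error (chi-square over its degrees of freedom 2.06, 15446 genes), so they were not treated as a single library deposited in duplicate. Of the 24 MYC-induced targets 23 matched a gene name. Intervals are at 95% and cover counting error only, and the limit that a count of 0 allows is 3 counts.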

Additional observations from a re-analysis of the deposited data

How the results depend on the processing

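No member passed in any alternative that kept all 4 libraries. The count of genes past the threshold was 0 with RLE, upper-quartile, total-count and high-signal scaling, with background subtracted, with limma-voom and with a mean of at least 20 counts, but 695 in DESeq2, 69 without the low-count filter and 28 with the replicate block. The replicate numbers share no stated source, and deviations of same-numbered libraries correlated at 0.011 over genes. With the block the log2 fold change was -2.49 for MXD3 and -0.39 for MYC. With 1 library left out, genes past the threshold ranged from 0 to 23895 and members from 0 to 10, with 0 members called when either pLKO library was left out.

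The MXD3 log2 fold change stayed below 0, from -4.63 to -0.84 over all alternatives. MXI1 and MNT stayed above 0 in every fit that kept shFABP4 2, and with 1 library left out ranged from -0.57 to 1.13 and from -0.36 to 1.21, lowest without shFABP4 2. With total-count and high-signal scaling MXI1 was at 1.81 and 2.81 and MNT at 1.99 and 3.02. Direction turned for the others. MYC, at 0.01, was at -0.065 in DESeq2, -0.063 with RLE, -0.056 without a filter, at -0.23 with background subtracted, at -0.58 in limma-voom, but at 0.57 with total-count and 1.22 with high-signal scaling, and between -2.73 and 0.74 with 1 library left out. MAX was at 0.56 with high-signal scaling and at 0.026 with background also subtracted, and MXD4 at 0.95 and 0.57, and at 0.048 with total-count scaling. MLX was at 1.85, 1.53 and 0.62 under those 3 settings, and MGA from -0.093 (without shFABP4 1) to 0.82 with 1 library left out. The median over all genes moved from 0.34 to 2.32 with high-signal and to 1.30 with total-count scaling, to 0.06 with background subtracted and to 1.01 with both, and the cause of each turn was not tested. Subtracting background with high-signal scaling was chosen after seeing the data. In shFABP4 1 MYC to MAX, at 0.648, and MYC to the repressor sum, at 0.108, were both 0 with background subtracted. Depth limits shFABP4 1, where 3 counts equal 1.18 CPM.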
